A study of Homo sapiens with 22 samples.

Results

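RAD21 binding was compared in clone D7 of hTERT RPE-1 cells before and after 4 h of NIPBL degradation. The comparison used 2 of the 22 samples of the series, 1 RAD21 peak list from DMSO-treated cells and 1 from cells treated with dTAGV-1. The DMSO list held 37566 peaks and the 4 h list 39059. Every peak of both lists was a member, and overlap of at least 1 bp placed each in a class. A DMSO peak that met a 4 h peak was retained (30066 peaks, which met 30191 peaks of the 4 h list) and one that did not was lost (7500). A 4 h peak that met no DMSO peak was new (8868). Lost peaks were 20.0% of the DMSO list (95% Wilson interval 19.6 to 20.4) and new peaks 22.7% of the 4 h list (22.3 to 23.1).

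hTERT RPE-1 is a telomerase-immortalised human retinal pigment epithelial line. Clone D7 carries mGreenLantern-P2A-FKBP12(F36V)-NIPBL, in which the FKBP12(F36V) domain lets the small molecule dTAGV-1 recruit NIPBL for degradation, and it is a single clone. The DMSO cells were held for 24 h in the solvent and the treated cells for 4 h in dTAGV-1, so the solvent control was not matched in time. All cells were cycling without synchronisation, carried the tagged NIPBL in both groups and were mixed with about 10% mouse NIH/3T3 cells as a spike-in. The remaining degree of NIPBL protein was not among the values analysed here. With a single library in each group, none of the differences could be checked against replicates. Intervals are 95% Wilson or Newcombe intervals, and they cover counting error only.

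Cohesin is a ring-shaped complex that holds DNA and extrudes it into loops, and RAD21 is the subunit that closes the ring. NIPBL stimulates the cohesin ATPase and drives loading and loop extrusion, while CTCF, a zinc-finger protein bound to DNA in a fixed orientation, halts extruding cohesin. STAG1 and STAG2 are alternative accessory subunits of the ring. PDS5A and WAPL act in the release of cohesin, and PDS5A also helps to hold it at CTCF sites. In RAD21 ChIP-seq most strong peaks therefore sit at CTCF sites, and weaker ones are found at active promoters and enhancers.

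Promoters of 5 genes illustrate the 3 classes at gene starts, and each overlaps a peak described below. ZBTB12 carried the strongest retained peak with no CTCF peak, NIPBL and LTBP2 carried lost peaks, and WAPL and RPS3A carried new peaks. The sequences are the 250 bases before the listed RefSeq start (GRCh38.p14), written 5′ to 3′ on the strand of the gene. The letters CNAGGNGGC (from the CTCF core), TGANTCA (AP-1), CCAAT and TATAAA were searched on both strands, and capitals mark every match, which here are 2 CCAAT matches in WAPL.
ZBTB12, chr6:31902087-31902336, minus strand: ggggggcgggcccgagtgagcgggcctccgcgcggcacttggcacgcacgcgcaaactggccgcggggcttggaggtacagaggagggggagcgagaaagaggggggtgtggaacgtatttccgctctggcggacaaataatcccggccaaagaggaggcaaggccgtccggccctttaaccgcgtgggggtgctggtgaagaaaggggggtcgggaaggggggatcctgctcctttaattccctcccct
NIPBL, chr5:36876519-36876768, plus strand: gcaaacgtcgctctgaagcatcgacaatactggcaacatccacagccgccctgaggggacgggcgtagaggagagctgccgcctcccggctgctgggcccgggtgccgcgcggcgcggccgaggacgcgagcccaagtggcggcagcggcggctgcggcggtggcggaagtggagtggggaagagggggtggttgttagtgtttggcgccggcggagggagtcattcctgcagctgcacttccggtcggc
LTBP2, chr14:74612238-74612487, minus strand: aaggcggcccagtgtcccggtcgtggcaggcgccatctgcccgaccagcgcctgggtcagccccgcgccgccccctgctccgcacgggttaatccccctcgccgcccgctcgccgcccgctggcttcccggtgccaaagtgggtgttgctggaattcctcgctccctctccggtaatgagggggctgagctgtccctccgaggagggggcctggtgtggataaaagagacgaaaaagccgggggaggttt
WAPL, chr10:86521793-86522042, minus strand: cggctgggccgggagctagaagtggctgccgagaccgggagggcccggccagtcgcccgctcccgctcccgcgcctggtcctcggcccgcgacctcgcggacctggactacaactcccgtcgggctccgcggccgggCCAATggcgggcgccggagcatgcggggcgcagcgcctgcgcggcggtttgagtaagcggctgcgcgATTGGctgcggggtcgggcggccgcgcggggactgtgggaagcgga
RPS3A, chr4:151099378-151099627, plus strand: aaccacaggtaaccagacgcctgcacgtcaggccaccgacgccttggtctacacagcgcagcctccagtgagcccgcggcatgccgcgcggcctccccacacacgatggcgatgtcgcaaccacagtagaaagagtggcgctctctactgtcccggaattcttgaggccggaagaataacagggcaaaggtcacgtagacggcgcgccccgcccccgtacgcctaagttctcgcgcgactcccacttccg

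Read totals were not part of the peak lists. The background pileup is the lowest local background, in fragments covering a base, that was recovered from each list. This pileup was 3.00 in DMSO and 4.05 at 4 h, so the 4 h library was 1.35 times deeper on this measure. It was 1.87 to 3.16 in the other 4 RAD21 libraries of the series, 13.4 for CTCF, 1.77 for STAG1, 3.14 for STAG2 and 2.76 for PDS5A. CTCF and WAPL came from wild-type cells, and the STAG1 and STAG2 libraries of clone D7 carry no treatment label. The PDS5A library came from DMSO-treated clone D7 and shared its input with the RAD21 DMSO library.

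The peaks that changed class were weak and narrow in their own list. The fold enrichment of a summit over local background, as the authors deposited it, had a median of 13.3 for retained and 4.75 for lost peaks within the DMSO list. Within the 4 h list it was 10.9 for peaks shared with DMSO and 3.96 for new peaks. A fold of at least 10 was reached by 394 lost peaks (5.25%) against 60.4% of retained peaks, and by 63 new peaks (0.71%) against 52.8% of shared ones. The median width was 464 bp for lost and 756 bp for retained peaks, and 454 bp for new and 751 bp for shared peaks. Of DMSO peaks under 400 bp, 55.6% (54.0 to 57.1) were lost, and of those of 1200 bp or more 4.13% (3.48 to 4.91).

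Loss fell with fold both at CTCF sites and elsewhere. The DMSO list was cut into 10 equal groups by fold, from decile 1, the weakest, to decile 10. In decile 1, 42.0% (39.4 to 44.7) of peaks on a CTCF peak and 54.4% (52.4 to 56.3) of peaks without one were lost. In decile 2 they were 43.0% (40.8 to 45.2) and 52.9% (50.6 to 55.1), and in decile 5 17.5% (16.3 to 18.8) and 28.2% (22.8 to 34.2). In decile 10, where every peak overlapped CTCF, 0 of 3757 were lost, and 3 counts of that total allow a share of up to 0.0799%. New peaks showed a wider gap: in decile 1 of the 4 h list, 48.2% (45.3 to 51.1) of peaks on a CTCF peak and 76.7% (75.1 to 78.3) of those without one were new. Within deciles 1 to 5 of both lists, peaks without a CTCF peak thus more often lacked a partner in the other list. CTCF-free DMSO peaks at gene starts went the other way in deciles 2 to 4: 38.0% (33.9 to 42.3) were lost in decile 2 against 43.0% at CTCF sites, 30.1% in decile 3 against 38.7%, and 12.9% (8.43 to 19.3) in decile 4 against 29.7% (28.1 to 31.3).

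**Figure D1:**
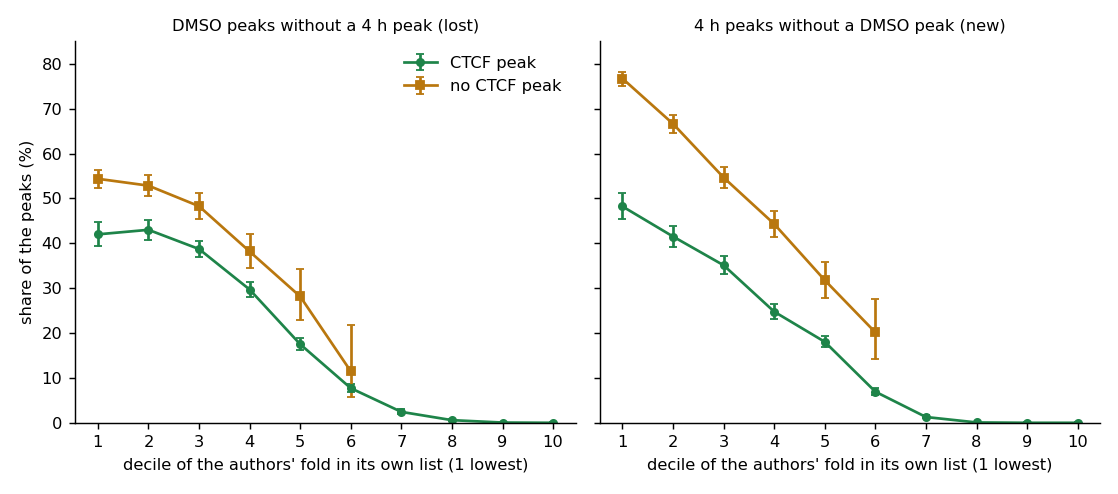
Share of DMSO peaks that were lost (left) and of 4 h peaks that were new (right), in %, by decile of the authors' fold within each list, for peaks with and without an overlapping CTCF peak. Bars are 95% Wilson intervals, and points with under 50 peaks are not drawn. Both shares fall over the deciles, from 42.0% and 43.0% lost at CTCF sites in deciles 1 and 2 to 0 in decile 10, and the points without a CTCF peak lie above those with one.

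Retained peaks were defined by overlap, so the rule itself placed them near their partners. A peak that moved beyond its width would count as lost and new. Under this rule, the summits of a retained peak and its partner lay a median of 14 bp apart, and 93.8% of pairs were within 200 bp. Of the retained peaks, 99.4% overlapped their partner over at least 50% of the shorter peak, and 12 overlapped by under 50 bp. On the other side of the overlap rule, 19 lost and 20 new peaks lay within 100 bp of a peak of the other list. The median width of a retained peak was 756 bp in DMSO and 756 bp at 4 h, although the 4 h library was deeper by background pileup. Inside genes at CTCF sites, 45.4% of retained peaks were wider at 4 h, and between genes at CTCF sites 55.4%. In 271 cases 2 or more 4 h peaks met 1 DMSO peak, and a 4 h peak spanned several DMSO peaks in 154.

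CTCF, the accessory subunits and PDS5A marked the retained class, lost peaks lay between, and new peaks held the fewest. A CTCF peak underlay 89.4% of retained, 57.9% (56.7 to 59.0) of lost and 40.8% (39.8 to 41.8) of new peaks. The difference between retained and lost was 31.5 points (30.4 to 32.7), and that between lost and new 17.0 points (15.5 to 18.5). STAG1 peaks were found at 77.8% of retained, 23.5% of lost and 9.45% of new peaks, and STAG2 peaks at 56.8%, 22.8% and 4.60%. PDS5A peaks were found at 64.4%, 21.2% and 14.6%. With a −log10 q of at least 10 asked of both lists, CTCF was at 73.8% of lost and 66.9% of new peaks and STAG1 at 40.7% and 23.5%, in the same order. Among lost and new peaks that reached this limit themselves, the order turned for the 24 h RAD21 lists, which held 30.7% of lost and 33.4% of new peaks in D7 and 30.4% and 35.3% in A2. WAPL, whose list was short, had a peak at 8.70% of retained peaks, at 6 lost peaks and at 4 new ones. The STAG1, STAG2 and PDS5A libraries are all of clone D7 and PDS5A shares an input with the DMSO library, so presence there is not independent of that clone.

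**Figure D2:**
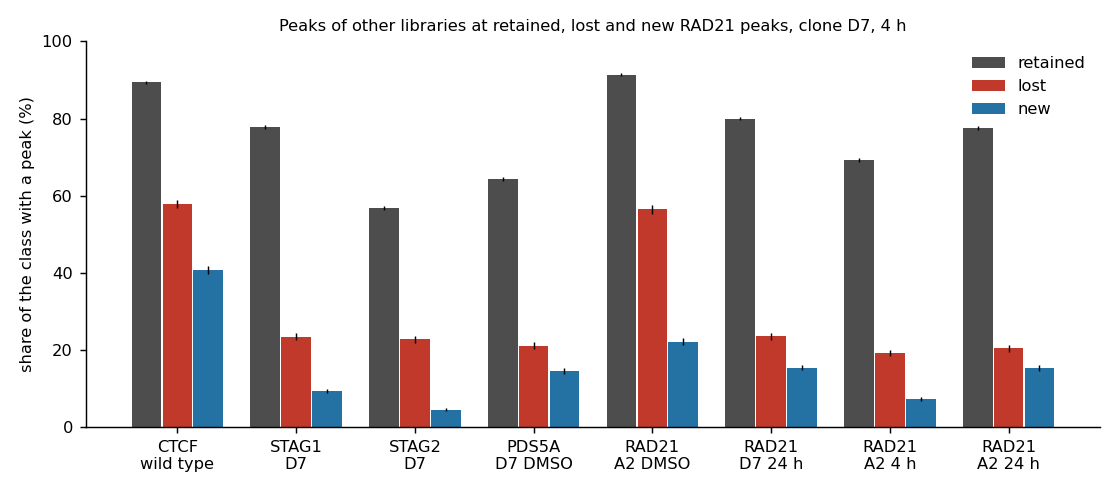
Share of retained, lost and new RAD21 peaks (in %, bars with 95% Wilson intervals) that overlap a peak of each other library named on the horizontal axis. In all 8 libraries drawn the retained class is highest and the new class lowest, for instance 89.4%, 57.9% and 40.8% for CTCF.

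The lost and new shares also differed with the strength of the CTCF peak beneath a RAD21 peak. The CTCF list was cut into 4 equal groups by fold, and each RAD21 peak was placed by the CTCF peak it overlapped. The lost share was 30.6% (28.6 to 32.6) over the weakest group, 30.7% (29.4 to 32.0) over the next, 16.5% (15.8 to 17.2) over the third and 4.22% (3.90 to 4.56) over the strongest. For new peaks the shares were 44.7% (42.8 to 46.6), 31.0% (29.7 to 32.4), 8.36% (7.82 to 8.93) and 1.74% (1.54 to 1.97) in the same order. The lost share therefore did not differ between both weaker groups beyond counting error, whereas the new share fell at each step. These shares were not split by the fold of the RAD21 peak, and the part of RAD21 strength in them was not tested.

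Loss at CTCF sites differed with the accessory subunit found there. Of CTCF-overlapping DMSO peaks with both STAG1 and STAG2, 1.75% (1.55 to 1.98) were lost. The share was 10.0% (9.36 to 10.7) with STAG1 alone, 30.7% (28.9 to 32.5) with STAG2 alone and 42.2% (41.0 to 43.5) with neither. The order of the shares held within deciles 3 to 6 of RAD21 strength. In deciles 3, 5 and 6 the intervals of both and of STAG1 alone overlapped, as did those of STAG2 alone and of neither. In decile 4 of the DMSO list (fold 5.84 to 7.43), 9.97% (7.26 to 13.6) were lost with both, 15.7% (13.6 to 18.1) with STAG1 alone, 39.3% (34.6 to 44.1) with STAG2 alone and 42.9% (40.3 to 45.6) with neither, the last pair not differing beyond counting error. In deciles 1 and 2 it did not hold: STAG1 alone was lowest (22.1% and 19.6%), both together gave 31.0% of 42 and 25.0% of 72 peaks, and STAG2 alone (61.0% and 59.7%) lay above neither (53.1% and 53.9%). The STAG2 library was the deeper of the pair by background pileup (3.14 against 1.77), and the part of depth in this order was not tested. For PDS5A, 5.80% (5.48 to 6.14) of CTCF-overlapping peaks were lost where it had a peak and 27.5% (26.7 to 28.3) where it had none. That contrast was read over all RAD21 strengths together and not within deciles.

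New peaks differed less between the subunits alone. At CTCF sites, 0.319% of 4 h peaks with both STAG proteins were new, 5.82% (5.32 to 6.38) with STAG1 alone, 8.83% (7.64 to 10.2) with STAG2 alone and 46.1% (44.9 to 47.4) with neither. In deciles 1 to 4 of the 4 h list STAG2 alone lay above STAG1 alone, with intervals that overlapped, for instance 14.2% (10.5 to 19.1) and 9.70% (7.64 to 12.2) in decile 3. In decile 5 they were 8.06% (5.71 to 11.3) and 8.16% (6.73 to 9.86).

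By position, lost peaks were found inside genes more often than any other class. A peak counted as at a gene start when its summit lay within 1 kb of the listed start of a protein-coding gene, or of either end of a gene with no listed start (4162 of 19974 genes), so some of these peaks lie at the far end of a gene. Inside genes lay 46.8% (45.7 to 48.0) of lost, 36.7% (36.1 to 37.2) of retained and 36.1% (35.1 to 37.1) of new peaks. At gene starts lay 16.3% (15.5 to 17.2) of lost, 16.6% (16.2 to 17.0) of retained and 20.9% (20.0 to 21.7) of new peaks. The gene-start shares of retained and lost peaks differed by 0.29 points, with an interval of −0.66 to 1.21. This comparison turned with the settings: lost peaks were at 19.2% and retained at 12.1% when both lists were held to a −log10 q of at least 10, and at 10.3% and 13.9% when only the DMSO peaks were. With both lists held, a DMSO peak whose 4 h peaks all fell under the limit counted as lost. Lost peaks then numbered 5816, against 3609 with the DMSO list alone held. New peaks exceeded shared peaks at gene starts by 4.03 points (3.10 to 4.98). Among the stronger new peaks, those with a −log10 q of at least 10, the gene-start share was 11.3% (10.1 to 12.6), against 12.9% (12.5 to 13.3) of such shared peaks, whereas with both lists held to that limit it was 16.8% (15.5 to 18) for new and 12.1% for retained peaks.

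The order of places was different at CTCF sites and away from them. With a CTCF peak, 18.4% (17.7 to 19.1) of DMSO peaks inside genes were lost, 11.9% (10.9 to 12.9) at gene starts and 10.6% (10.1 to 11.1) between genes. Without one, 59.9% (57.7 to 62.0) were lost inside genes, 51.5% (49.5 to 53.5) between genes and 36.9% (34.8 to 39.1) at gene starts. CTCF-free peaks at gene starts were thus lost least often among CTCF-free peaks, and with listed starts alone the share there was 36.3% (34.0 to 38.6). New peaks without CTCF took the same order, with 69.4% (67.7 to 71.1) of 4 h peaks inside genes, 65.4% (63.8 to 67.0) between genes and 47.4% (45.4 to 49.4) at gene starts.

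The same DMSO peaks can be read against every other RAD21 list. Clone A2 carries mCherry-P2A-FKBP12(F36V)-NIPBL in the same line, and its DMSO list, from cells with NIPBL undegraded, lacked 15.6% of the D7 DMSO peaks at a background pileup of 1.87. Without CTCF, the shares absent from D7 at 4 h and from A2 in DMSO had overlapping intervals between genes, 51.5% (49.5 to 53.5) and 50.6% (48.6 to 52.7), and inside genes, 59.9% (57.7 to 62.0) and 57.0% (54.9 to 59.2). At CTCF-free gene starts fewer were absent from D7 at 4 h, 36.9% (34.8 to 39.1) against 42.0% (39.8 to 44.2). At CTCF sites inside genes more were, with 18.4% (17.7 to 19.1) absent from D7 at 4 h and 8.13% (7.66 to 8.62) absent from A2 in DMSO. Between genes at CTCF sites they were 10.6% (10.1 to 11.1) and 7.24% (6.83 to 7.68), and at gene starts with CTCF 11.9% (10.9 to 12.9) and 14.2% (13.1 to 15.2).

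The degraded libraries lacked more. D7 at 24 h, compared against the same DMSO control as D7 at 4 h, lacked 69.2% (67.2 to 71.3) of the CTCF-free DMSO peaks at gene starts, and A2 at 4 h lacked 97.3% (96.4 to 97.9). At CTCF sites inside genes the shares were 23.8% (23.1 to 24.6) and 29.1% (28.3 to 29.9). Within clone A2, compared with its own DMSO control, 96.8% of CTCF-free gene-start peaks were lost at 4 h, against 36.9% in clone D7. Each clone gave 1 library per condition, and the difference between clones was not tested.

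**Figure D3:**
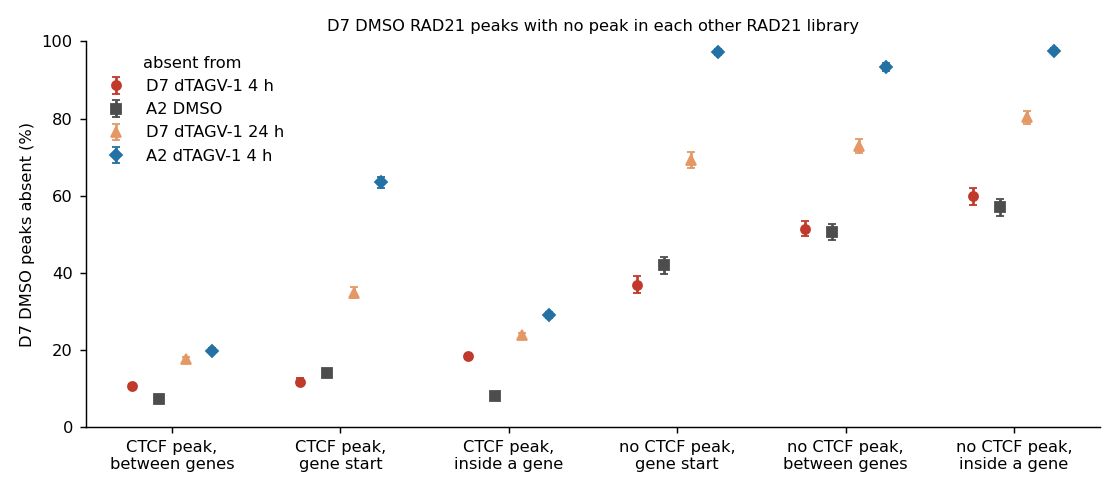
Share of clone D7 DMSO RAD21 peaks, in %, with no overlapping peak in each of 4 other RAD21 libraries, by CTCF overlap and place; bars are 95% Wilson intervals. For peaks without CTCF between genes the D7 4 h and A2 DMSO points lie near each other (51.5% and 50.6%), while A2 at 4 h lies at 93.5% to 97.6%; at CTCF sites inside genes D7 4 h (18.4%) lies above A2 DMSO (8.13%).

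Most lost peaks had been called in another library, and most new peaks had not. Of the 7500 lost peaks, 36.1% (35.0 to 37.1) were in none of the 4 other RAD21 lists and 6.05% (5.54 to 6.62) in all 4. Of the 8868 new peaks, 65.3% (64.3 to 66.3) were in none and 2.66% (2.35 to 3.02) in all. The clone A2 DMSO list held 56.5% (55.4 to 57.6) of lost and 22.2% (21.4 to 23.1) of new peaks, against 91.4% of retained peaks. Among the 394 lost peaks with a fold of at least 10, only 8 were in none of the other lists and 105 were in all 4. Of the 63 new peaks with such a fold, 3 were in none and 18 in all 4. At this fold the shares in none were 2.03% of lost and 4.76% of new peaks. The part of peak strength and of depth in the contrast over all peaks was not tested.

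The strongest lost peaks show this. The lost peak with the highest fold lay in ACTR2, a subunit gene of the Arp2/3 actin nucleator, at chr2:65264814-65265746. Its fold was 29.6 in D7 DMSO, 8.93 in D7 at 24 h, 28.5 in A2 DMSO, 11.0 in A2 at 4 h and 11.8 in A2 at 24 h, each the authors' value in its own list, and the nearest D7 4 h peak was 33480 bp away. The next lay in DST, which encodes the cytoskeletal linker dystonin, at chr6:56757387-56758339, with folds of 27.8 in D7 DMSO, 5.02 in D7 at 24 h, 25.3 in A2 DMSO, 10.5 in A2 at 4 h and 8.36 in A2 at 24 h. Both sites thus had a peak in all RAD21 lists except D7 at 4 h.

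The other 3 of the 5 strongest lost peaks followed the same pattern. They lay in ANKRD17 (fold 25.6, chr4:73256969-73257739), between genes near the imprinted RTL1 (25.2, chr14:100827834-100828458) and in APP, the amyloid precursor gene (25.0, chr21:25895629-25896413). All 5 overlapped CTCF, STAG1 and STAG2 peaks and were present in the 4 other RAD21 lists. The ANKRD17 and RTL1 peaks had a 4 h peak 508 bp and 258 bp away.

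New peaks of the highest fold were likewise sites of the other libraries. The highest lay between genes at chr15:70604508-70605156, 49703 bp from UACA, with a fold of 20.4 in D7 at 4 h, 9.34 in D7 at 24 h, 18.9 in A2 DMSO, 5.68 in A2 at 4 h and 11.8 in A2 at 24 h. The second, at chr4:102625416-102625856, lay 5047 bp from MANBA, the lysosomal beta-mannosidase gene, and had folds of 19.5 in D7 at 4 h and 17.6 in A2 DMSO. The others lay near TMEM61 (17.8), OLIG3 (14.8) and PRAMEF20 (14.6). All 5 lay between genes, overlapped CTCF and STAG1 and were in every other RAD21 list except D7 DMSO.

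The 3 strongest retained peaks had folds of 204 in ABTB2, 186 near HHIPL2 and 184 in ADAT2 in the DMSO list. Their partners had folds of 210.3, 213 and 101 in the 4 h list, and all 3 carried CTCF, STAG1, STAG2, PDS5A and WAPL peaks.

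Peaks without CTCF reached lower folds. The strongest retained one covered the start of ZBTB12, a zinc-finger gene, at chr6:31901748-31902648, and its promoter, printed above, has no match to the CTCF letters. Its fold was 33.8 in D7 DMSO, 14.6 in D7 at 4 h, 9.80 in D7 at 24 h, 25.0 in A2 DMSO, 4.52 in A2 at 4 h and 8.81 in A2 at 24 h. The strongest lost ones lay 504489 bp from NR2F1 (fold 15.5), in CDKAL1 (15.3) and 647784 bp from PKDCC (13.0). All 3 had a STAG1 peak and a peak in A2 DMSO and A2 at 24 h, and none had one in A2 at 4 h. The strongest new ones lay near LOC124903470 (10.5), in NFATC2, a calcineurin-regulated transcription factor gene (10.3), and near RYBP (9.48). Of these, 1 was in the A2 DMSO list.

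The widest peaks of both changed classes lay mostly at gene starts. Among lost peaks, 3394 bp covered the start of NRIP1, a nuclear receptor corepressor gene (chr21:15062871-15066264), and 3034 bp that of SMAD6, an inhibitory SMAD of the BMP and TGF-beta pathways (chr15:66701317-66704350). SMAD6 had a fold of 3.48 in D7 DMSO and 6.12 in A2 DMSO and no peak in the 4 degraded libraries, whereas NRIP1 had a peak in every list except D7 at 4 h. The widest new peaks lay at the starts of TRAF4 (2988 bp), EFR3B (2904 bp) and TP53I13 (2662 bp). Each of these lost and new peaks overlapped a CTCF peak, and none of the 3 new ones overlapped STAG2.

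Gene starts were then read by gene, with both ends standing in for the start where none was listed. Of 6363 protein-coding genes with a DMSO peak at the start, 21.2% had at least 1 lost peak and 18.7% had lost all of them. Of 7038 genes with a 4 h peak there, 28.4% had at least 1 new peak. Over genes with a listed start the shares were 21.7% of 5195 genes with a lost and 28.7% of 5740 with a new peak. These shares are the background for the gene lists, which describe genes and not expression. In clone A2 the same background was 73.4% of 5776 genes with a lost and 1.33% of 1732 genes with a new peak.

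**Figure D4:**
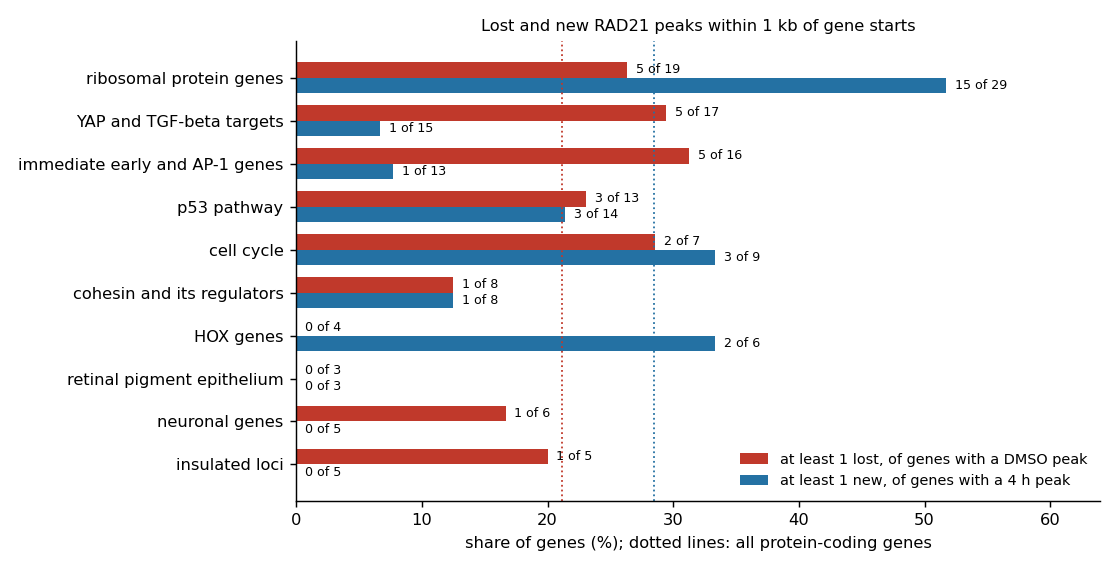
Share of genes of each list, in %, with at least 1 lost peak among those with a DMSO peak at the start (red) and with at least 1 new peak among those with a 4 h peak there (blue); counts stand beside the bars and dotted lines give 21.2% and 28.4% for all protein-coding genes, and for genes with no listed start either end counts. Ribosomal protein genes have the highest new share, 15 of 29.

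Ribosomal protein genes, which are transcribed at a high level in growing cells, had the highest new share of the gene lists. Of 76 genes, 19 had a DMSO peak at the start and 29 a 4 h peak, and 15 of the 29 had a new one (51.7%, 34.4 to 68.6, against 28.4% of all genes). The comparison with all genes was not matched for the fold of the peaks, and the part of peak strength was not tested. With listed starts alone it was 14 of 24. The highest fold among them was at RPS3A (5.48), followed by RPL35 (4.81), RPL38 (4.50), RPS14 (4.35), RPS6 (4.09) and RPL32 (3.75). RPS3A, RPS14 and RPL32 also had a peak in A2 DMSO (6.13, 3.58 and 4.65), and none of the 6 had one in D7 at 24 h. Lost peaks were at 5 of the 19 (26.3%, against 21.2% of all genes), namely RPS28 (6.97), RPL21 (4.03), RPL23 (4.03, at an end of a gene with no listed start), RPL15 (3.41) and RPL31 (2.92). In clone A2, 20 of 22 ribosomal protein genes had a lost peak and 0 of 2 a new one. Over all genes of that clone the shares were 73.4% of 5776 and 1.33% of 1732.

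Targets of YAP and TGF-beta, which respond to adhesion and growth factor signals in spread epithelial cells, had lost peaks at 5 of 17 genes (29.4%) and a new peak at 1 of 15, or 5 of 13 and 1 of 11 with listed starts alone. The intervals, 13.3 to 53.1 for lost and 1.19 to 29.8 for new, held the shares of all genes, 21.2% and 28.4%. LTBP2, a TGF-beta binding protein gene of the extracellular matrix, had the highest fold, 9.08 in D7 DMSO and 9.73 in A2 DMSO, and no peak in any of the 4 degraded libraries. SMAD7 (4.03) and SMAD3 (3.36), an inhibitory and a receptor-regulated SMAD, each kept another peak at the start. ANKRD1 (3.20), a YAP target, and AXL (3.14), a receptor tyrosine kinase gene, kept none. The new peak was at TGFBI (4.27), which also had a peak at 24 h in D7 (4.67).

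Immediate early and AP-1 genes had lost peaks at 5 of 16 genes (31.3%) and a new peak at 1 of 13. The intervals, 14.2 to 55.6 for lost and 1.37 to 33.3 for new, again held the shares of all genes, 21.2% and 28.4%. The lost peaks at listed starts, 3 of 12 genes (25.0%), were at JUND (5.38), FOSB (5.25) and JUNB (4.57), subunit genes of AP-1, of which JUNB also had a peak in A2 DMSO (6.82) and in D7 at 24 h (2.86). The other two, at MYC (5.02) and FOSL1 (4.10), lay at an end of a gene with no listed start, and the MYC peak lay past the end with the higher coordinate, which is the 3′ end of this plus-strand gene. The new peak was at EGR1 (3.66), which also had a peak in A2 DMSO (4.08) and lay 766 bp from a D7 DMSO peak. In clone A2, 12 of 14 of these genes had a lost peak, as did 12 of 16 YAP and TGF-beta targets, near its background of 73.4%.

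Genes of cohesin and its regulators had 1 lost and 1 new peak, each among 8 genes (12.5%, against 21.2% and 28.4% of all genes). The lost one was at NIPBL itself, at chr5:36875389-36876711, with a fold of 8.47 in D7 DMSO, 5.51 in A2 DMSO and no peak in the 4 degraded libraries. It overlapped CTCF, STAG1 and PDS5A peaks, and its promoter, printed above, has no match to the CTCF letters and 1 to a looser CTCF pattern of 12 letters. The new one was at WAPL, at chr10:86521190-86522345, with a fold of 4.84 and a −log10 q of 11.1. It overlapped CTCF and PDS5A peaks and lay in none of the other RAD21 lists.

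The remaining lists held few such genes. For the p53 pathway and the cell cycle the intervals held the shares of all genes, 21.2% lost and 28.4% new. The p53 pathway had 3 of 13 genes with a lost peak (SESN1, XPC and ZMAT3) and 3 of 14 with a new one (TIGAR and BTG2 at listed starts, RRM2B at an end). Cell cycle genes had 2 of 7 with a lost peak, CDKN2A (5.00) at its listed start and CCNE2 (7.06) at an end, and 3 of 9 with a new one, CCNB2 (4.35), CDKN1B (3.62) and CCNA2 (3.30). HOX genes had 0 of 4 with a lost and 2 of 6 with a new peak, HOXA3 (7.52) at a listed start and HOXD9 (2.77) at an end of the gene. HOXA3 also had a peak in A2 DMSO (7.10) and in A2 at 4 h (4.15). Retinal pigment epithelium genes had a DMSO peak at 3 of 17 starts, all retained, and neuronal genes a lost peak at 1 of 6 (TUBB3, 4.12). Among insulated loci no gene had a lost peak at a listed start or a new peak, and the lost peak at SOX9 (9.34) lay at an end of the gene, with no start listed.

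Letters of the promoters were counted by class. The CTCF letters CNAGGNGGC were found in 12.6% of 22132 promoter windows of 300 bases. They were in 17.6% (16.5 to 18.7) of windows over a retained peak, 11.7% (9.85 to 13.9) over a lost peak, 15.6% (13.8 to 17.5) over a new peak and 10.8% (10.3 to 11.3) over no peak. With the looser CTCF pattern of 12 letters the shares over lost and new peaks were 14.1% (12.1 to 16.4) and 14.0% (12.3 to 15.9), so a difference between them depended on the letters searched, while retained windows were the highest with both. The median GC content of windows over lost and new peaks was 65.3% and 67.3%, against 68.3% over retained peaks and 59.3% over none. The TATA letters TATAAA were in 4.64% of windows over a lost peak, 4.19% over a new one and 9.46% of all. CCAAT was in 35.6% (32.7 to 38.7) over lost, 31.6% (29.3 to 34.1) over new and 29.7% (28.4 to 31.0) over retained peaks, and in 34.6% of all windows. The AP-1 letters TGANTCA were in 5.05% (3.85 to 6.59), 4.68% (3.70 to 5.89), 4.41% (3.86 to 5.04) and 6.15% in the same order. A match is a description of letters, not a bound site.

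Lost peaks gathered in gene bodies. The genes with the most lost peaks by summit were LPP, a focal adhesion gene, with 14 of 17 DMSO peaks lost, and ZMIZ1, a transcriptional coregulator gene, with 13 of 19. ADAMTSL1 had 10 of 17, EXT1, a heparan sulfate polymerase gene, 10 of 13, and NAV1 10 of 15. LPP and EXT1 had no new peak. The genes with the most new peaks were TSPAN9, a tetraspanin gene, with 12 new and 0 of 6 lost, HIVEP3 with 11, RANBP2 with 10, and KAZN and SH3RF3 with 9 each. As the table lists it, RANBP2 spans 1123 kb and contains SH3RF3, so these share peaks. Long genes hold more peaks, and these 10 spanned 209 to 1225 kb.

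Lost peaks tended to follow one another along the chromosome. The next peak of the DMSO list was also lost after 26.3% (25.3 to 27.3) of lost peaks and after 18.4% (17.9 to 18.8) of retained ones. For new peaks the shares were 25.9% (25.0 to 26.9) and 21.7% (21.3 to 22.2). The longest run of lost peaks held 11 in a row on chromosome 3 (101862926 to 102190664) with no gene start within 1 kb of a summit and 1 peak on CTCF. A run of 9 followed at PAPPA on chromosome 9. The longest run of new peaks held 8, on chromosome 12 (5088524 to 5913400), over ANO2.

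Spacing within a list was closer for lost peaks. The median distance from a summit to its nearest neighbour in the same list was 12.7 kb for lost, 16.5 kb for retained and 15.0 kb for new peaks. Of DMSO peaks with a neighbour within 2 kb, 29.7% (28.0 to 31.5) were lost, against 18.5% (17.6 to 19.4) of those with none within 50 kb. To the other list the median distance was 14.5 kb from a lost and 17.6 kb from a new peak, and 6.57% of lost and 5.19% of new peaks lay within 1 kb of one.

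Gene-poor regions lost a larger share of their DMSO peaks. In 1 Mb bins without a protein-coding gene, 27.3% (24.8 to 30.0) of DMSO peaks were lost, and in bins with 15 genes or more 17.5% (16.7 to 18.3). The new share was 21.9% (19.6 to 24.5) in bins with no gene, 20.2% (19.4 to 21.0) with 1 to 4 genes and 24.8% (24.0 to 25.7) with 15 or more. By chromosome, the lost share ran from 16.2% on chromosome 22 to 23.8% on chromosome 21, and the new share from 19.1% on chromosome 4 to 27.3% on chromosome 21 and 27.1% on chromosome 10.

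Some regions stood apart from these ranges. Over 275 windows of 10 Mb with at least 50 DMSO peaks, the lost share had a median of 20.0% and quartiles of 17.3% and 23.4%, and the new share a median of 21.8% and quartiles of 18.2% and 25.1%. The first 10 Mb of chromosome 12 held 208 DMSO and 299 4 h peaks, with 110 new (36.8%, 31.5 to 42.4) and 15 lost (7.21%, 4.42 to 11.6), the lowest lost share of all windows. The other RAD21 lists held 179 peaks there in D7 at 24 h, 232 in A2 DMSO, 138 in A2 at 4 h and 171 in A2 at 24 h, all below the 299 of D7 at 4 h. This window contained TSPAN9, the run over ANO2 and 2 of the 3 bins of 1 Mb with the most new peaks, 25 of 73 at 6 to 7 Mb, around GAPDH and CHD4, and 23 of 43 at 3 to 4 Mb.

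The end of the long arm of chromosome 10 behaved alike. From 120 to 130 Mb there were 148 DMSO and 200 4 h peaks, with 38.0% new (31.6 to 44.9) and 16.9% lost (11.7 to 23.7). Beyond 130 Mb, where the DMSO list held 48 peaks and so fell under the minimum of 50, the 4 h list held 86, of which 43 were new, while the other RAD21 lists held 28 to 49. Another chromosome 10 window, 40 to 50 Mb, was high in both directions, with 32.6% lost (23.6 to 43.0) and 41.4% new (32.2 to 51.3). The highest lost share was on chromosome 3 from 100 to 110 Mb, 43 of 115 peaks (37.4%, 29.1 to 46.5), where 13.1% of 4 h peaks were new, and the window contained the run of 11. Scaled to the DMSO depth, the new share was 33.7% (28.4 to 39.4) in the chromosome 12 window and 35.3% (28.8 to 42.3) at 120 to 130 Mb of chromosome 10.

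**Figure D5:**
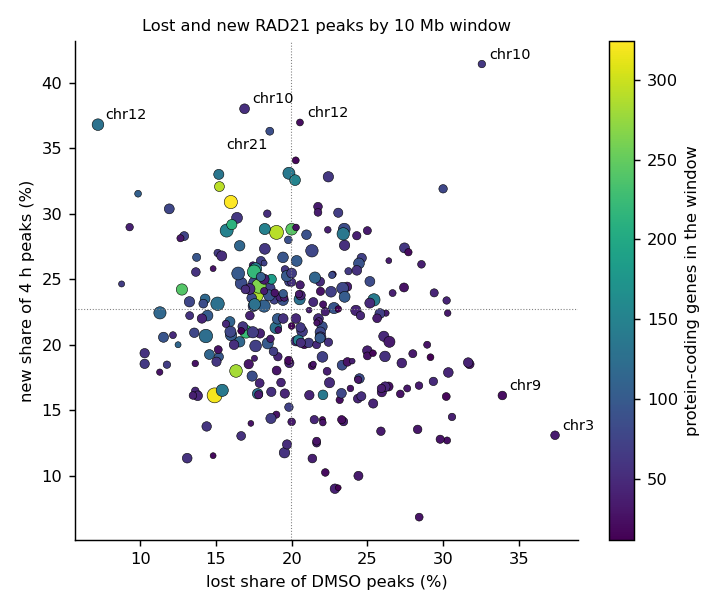
Lost share of DMSO peaks (horizontal, %) and new share of 4 h peaks (vertical, %) in 275 windows of 10 Mb with at least 50 DMSO peaks; point area follows the number of DMSO peaks, colour the number of protein-coding genes, and dotted lines mark the genome-wide shares of 20.0% and 22.7%. The first window of chromosome 12 lies at 7.21% lost and 36.8% new, and a chromosome 3 window at 37.4% lost and 13.1% new.

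Among the 1 Mb bins with the most lost peaks were those at 8 to 9 Mb of chromosome 1, with 18 of 43 DMSO peaks lost around RERE and ENO1, and at 65 to 66 Mb of chromosome 11, with 17 of 58. The first also held 10 new peaks.

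The balance of the classes was also read after scaling for depth and, separately, with a stricter limit. The 4 h list was 1.04 times as long as the DMSO list. Scaled to the DMSO background pileup, 845 peaks of the 4 h list fell under the DMSO limit of −log10 p, 685 of them new, and the ratio was 1.02. The stricter limit, a −log10 q of at least 10 in both lists with no scaling for depth, gave a ratio of 0.923, which turned the direction. The shares were then 19% lost (18.6 to 19.5) and 12.2% new (11.9 to 12.6). After the depth scaling alone, the lost share at CTCF sites was 14.1% (13.7 to 14.5). Away from CTCF it was 51.0% (49.8 to 52.3). CTCF-free gene starts lost 38.9% (36.8 to 41.1) then, still the lowest of the 3 CTCF-free places. The gene-start shares of lost and retained peaks turned to 16.8% and 16.5%.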

How the data were processed

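RAD21 ChIP-seq libraries of clone D7 were analysed from narrowPeak files with no header. Per the submitters' processing notes, the tools were BWA, Picard, SAMtools, bedtools, deepTools and MACS2 (versions not given in the sources used here), with builds hg38 and mm10. In the deposited files, the score column held a whole-number score per peak, the signal column the fold enrichment of the summit as a ratio, and the next columns the −log10 of p and of q, as the authors deposited them. Each list came from 1 immunoprecipitation, and peak names carry a value of 0.01 (0.001 for CTCF).

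Peaks were matched by overlap of at least 1 bp in Python 3.11.15 with pandas 2.3.3 and scipy 1.17.1. The overlap code was run on an altered copy of the DMSO list, with peaks removed, slightly shifted or added in wide gaps. That outcome was largely set by the design, so the run checks the code and not errors from depth or threshold. Summit pileup and local background were solved from fold and −log10 p under a Poisson model with a pseudocount of 1, giving whole pileups (within 0.02) for 100% of peaks with a −log10 p under 250; the lowest background served as depth. Genes came from a RefSeq table of GRCh38.p14 (19974 protein-coding genes, of which 15812 had a listed start and 4162 were represented by both ends). Groups held 1 library, so no p-value was computed, and counts of peaks are given with 95% intervals for counting error.

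Named peaks were the 5 strongest lost and new, the 3 strongest retained, the 3 strongest without CTCF in each class and the 3 widest lost and new. Named genes were the 5 with the most lost or new peaks and list genes with one at the start. Members and lists were chosen with earlier results of these data known. The 10 Mb windows, the 4 CTCF strength groups, the promoter letters and the printed NIPBL, WAPL, LTBP2 and RPS3A promoters were chosen after the values were seen. One of the widest lost peaks and a 1 Mb bin are not reported here. The HA list and the 10 inputs were not used here, and no spike-in factor was applied, so RAD21 levels that shifted everywhere alike, with the calls unchanged, would go unseen.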

Additional observations from a re-analysis of the deposited data

Results flagged for a closer look

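At 4 h the clones moved in opposite directions, with 1 library per condition each, and the difference between them was not tested. Clone D7 had 1.04 times as many RAD21 peaks as in DMSO, and clone A2 0.649 times as many. The CTCF share of the list changed by −4.88 points in clone D7 and by 11.98 points in clone A2. The gene-start share changed by 1.18 points in clone D7, from 16.6% to 17.7%, and by −7.91 points in clone A2, from 14.5% to 6.58%. These signs rested on the weaker peaks of clone D7. Among peaks with a −log10 q of at least 10, the ratio was 0.923 in D7 and 0.753 in A2, the CTCF share changed by 0.69 points in D7 (92.2% to 92.9%) and 3.11 points in A2, and the gene-start share changed by −0.74 points in D7 (13.5% to 12.7%) and −4.46 points in A2, so both clones then took the same sign.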

How the results depend on the processing

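No paired analysis was possible because each group held 1 library, and no library could be left out. With a −log10 q of at least 10 in both lists, the ratio of peak numbers turned to 0.923 and the lost and new shares were 19% and 12.2%. CTCF shares were then 96.6% for retained, 73.8% for lost and 66.9% for new peaks, gene-start shares 12.1%, 19.2% and 16.8%, STAG1 shares of lost and new peaks 40.7% and 23.5%, and shares present in A2 DMSO 76.9% and 48.2%. Median widths of lost and new peaks were 543 and 517 bp and median spacings 17.2 and 23.8 kb. The order of the gene-start shares thus changed, while that of the CTCF shares did not. With the 4 h list scaled to the DMSO background pileup, the new share was 21.4%, the ratio 1.02 and the CTCF share of new peaks 42.9%. With lists of equal length, 20.7% were lost and 20.4% new, CTCF shares of retained and new peaks were 89.8% and 44.6%, and the gene-start share of lost peaks was 17.3%. Asking for 50% of the shorter peak gave 20.4% lost and 23.2% new, and summits within 200 bp gave 24.7% and 27.6%. Restricting only the list counted to a −log10 q of at least 10 gave 11.8% and 8.59%. CTCF peaks in the upper 50% by fold gave CTCF shares of 74.2%, 30.9% and 11.7% for retained, lost and new peaks, and summits within 200 bp of a CTCF summit 84.2%, 51.5% and 34.8%. A 2.5 kb window gave gene-start shares of 21.4%, 20.5% and 25.4%, and listed starts alone, chosen after seeing the data, 13.6%, 13.7% and 17.3%. With listed starts alone, genes with a lost or new peak were 21.7% and 28.7% of those with a peak, and the HOX and insulated-locus lists kept 1 of 1 gene with a new and 0 of 3 with a lost peak. The order of lost and retained peaks at gene starts therefore depended on the settings. With both lists held to the limit, a DMSO peak whose 4 h peaks all fell under it counted as lost. This gave 5816 lost peaks, 19.2% at gene starts, against 3609 and 10.3% when the DMSO list alone was held. The cause was not tested beyond this.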
